A study of Mus musculus with 32 samples.

Results

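The genes described here carry cells through G2 and mitosis. The list holds 46 genes, chosen by function and with earlier results of these data known. Of these, 39 had a probe under their symbol on the array and 29 were bright enough to be tested. In the series, 18312 genes had a probe and 10903 were tested. A gene was represented by its probe with the highest mean. No probe carried the symbols Ccnb1, Aurkb, Cenpf, Kif20b, Racgap1, Smc4 or Mki67, so these 7 genes are not analysed here.

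RNA levels were measured on Illumina bead arrays in an immortalized culture of mouse embryonic fibroblasts (MEFs), the spindle-shaped cells that make connective tissue. KO cells were Spry124-/-, with Spry1, Spry2 and Spry4 deleted, and WT cells were Spry124fl/fl, with loxP sites around the same genes and normal Sprouty expression per the labels. Sprouty proteins are feedback inhibitors of signalling from receptor tyrosine kinases. All cells were starved of serum in DMEM with bovine serum albumin, penicillin and streptomycin, and were harvested 0, 15, 60, 120 and 240 min into FGF treatment. Each genotype had 4 arrays without FGF (0 min) and 3 at every other time point. The FGF ligand, its dose, the number of cell lines per genotype and how the deletion was made are not stated in the labels. The series title names the regulation of Wnt pathway genes by Sprouty as its question.

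Entry into mitosis is driven by Cdk1 bound to A- and B-type cyclins, which Cdc25 phosphatases activate and which works with the Aurora and Polo-like kinases. The spindle assembly checkpoint holds the anaphase-promoting complex or cyclosome (APC/C), the ubiquitin ligase that starts anaphase, until every chromosome is attached to the spindle. Kinesins and condensins move and compact the chromosomes, and anillin and Prc1 act when the cell divides. In cycling cells the mRNAs of these genes are highest in G2 and mitosis and low in quiescence, a pattern set largely by the DREAM, B-Myb and Foxm1 complexes acting on promoter elements called the CHR (cell cycle genes homology region) and on CCAAT boxes bound by NF-Y.

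Those elements were looked for because members of a co-regulated set might share them, and because their presence was not used to choose the genes. In the RefSeq mouse promoter table (GRCm38.p6), which gives the 300 bases from 250 before to 50 after each start, 39 of the 46 listed genes had an entry, 26 of them tested on the array, and these held 42 promoters. The CHR was searched as TTTGAA on either strand or TTCGAA, and the CCAAT box as CCAAT on either strand; 1 match of each overlapped within a member's window. A CHR was present in 78.6% of the members' promoters, against 19.2% of all 32851 promoters in the table. A CCAAT box was present in 81% of the members' promoters, against 37.4% of all promoters. Both were found in 71.4% of the members' promoters, against 7.52% of all promoters, and 27 of the 39 genes had a promoter with both. The windows of Nusap1, Ncaph, Birc5, Mad2l1 and Pttg1 held neither. A match is a stretch of letters and not a measured binding site.

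Promoters of 4 tested members with both elements are shown 5′ to 3′ on the strand of the gene, with the CHR and CCAAT letters in capitals. They are the 4 with the brightest probes: Cenpa, the centromeric histone H3 variant, on chr5:30666636-30666935 (plus strand), Prc1, which bundles microtubules of the central spindle, on chr7:80294201-80294500 (plus strand), Cdk1 on chr10:69352863-69353162 (minus strand), and Cdca3, a trigger of entry into mitosis that the APC/C degrades, on chr6:124829926-124830225 (plus strand).
Cenpa: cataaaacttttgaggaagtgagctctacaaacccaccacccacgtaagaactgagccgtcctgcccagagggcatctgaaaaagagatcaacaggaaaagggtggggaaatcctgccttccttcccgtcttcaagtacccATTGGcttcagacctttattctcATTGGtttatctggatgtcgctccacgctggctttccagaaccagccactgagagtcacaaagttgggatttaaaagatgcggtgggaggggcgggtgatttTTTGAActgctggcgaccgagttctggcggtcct
Prc1: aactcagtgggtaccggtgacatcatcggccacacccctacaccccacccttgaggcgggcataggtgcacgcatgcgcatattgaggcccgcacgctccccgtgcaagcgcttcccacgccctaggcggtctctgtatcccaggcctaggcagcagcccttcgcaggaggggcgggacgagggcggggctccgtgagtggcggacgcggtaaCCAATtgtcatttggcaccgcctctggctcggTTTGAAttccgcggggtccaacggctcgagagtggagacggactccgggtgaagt
Cdk1: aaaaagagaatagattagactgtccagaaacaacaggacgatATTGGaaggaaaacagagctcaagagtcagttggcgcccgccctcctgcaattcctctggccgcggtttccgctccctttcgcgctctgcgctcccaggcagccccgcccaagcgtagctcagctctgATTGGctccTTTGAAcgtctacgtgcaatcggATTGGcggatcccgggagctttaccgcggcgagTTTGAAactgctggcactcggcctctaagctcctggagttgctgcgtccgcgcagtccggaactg
Cdca3: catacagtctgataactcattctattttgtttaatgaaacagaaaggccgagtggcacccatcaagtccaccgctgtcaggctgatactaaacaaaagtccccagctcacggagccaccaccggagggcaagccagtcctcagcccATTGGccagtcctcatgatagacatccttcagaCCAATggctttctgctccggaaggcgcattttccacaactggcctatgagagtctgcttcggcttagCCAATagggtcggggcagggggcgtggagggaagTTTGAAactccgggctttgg
Of these 4 genes, averaged over the times, Cdca3 was higher in KO cells, Prc1 and Cdk1 were lower, and Cenpa was not called.

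The arrays were of even quality. Between 11516 and 12470 of the 25697 probes were detected on KO arrays and between 11319 and 11978 on WT arrays, and arrays of the same group correlated at 0.991 or more. Of 13 fibroblast markers with a probe, 10 were detected on every array and Fap on none; their summed linear level ran from 24800 to 28600 on KO arrays and from 30200 to 35300 on WT arrays. The lists of leukocyte, endothelial, epithelial, muscle and neural markers each summed to at most 304 on KO arrays and 253 on WT arrays. The epithelial sums, 41 to 64.8 on KO arrays and 95.5 to 199 on WT arrays, and the neural and glial sums, 48.1 to 129 on KO arrays and 140 to 253 on WT arrays, did not overlap between the genotypes, and neither did the fibroblast sums. Ptprc, Cdh5, Vwf, Krt18, Krt5, Myod1, Myf5, Ckm and Gfap were detected on no array. In the same lists, 1 leukocyte marker and 1 neural or glial marker were detected on every array. The part of these marker and detection differences in the genotype comparisons was not tested. Spry4 averaged 4.74, 4.60, 4.64, 5.19 and 4.66 (log2 intensity, 0 to 240 min) in KO cells and 5.45, 4.78, 5.86, 6.13 and 5.87 in WT cells, and its probe was detected on all 3 KO arrays at 120 min. Spry1 and Spry2 were detected on at most 1 array of any group in either genotype and so do not check the deletion, and where these probes lie relative to the deleted parts is not known here. Spry3 is not among the genes labelled as deleted, yet its probe was detected on no KO array and on every WT array. The replicates are biological per the design text. Whether each was a culture of its own is not stated, and p-values cover only the variation among these arrays, which may be technical.

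A member was called where its adjusted p in a model over all 10903 genes was under 0.05. Counts at an unadjusted p under 0.05 use a looser threshold. They are given for members only and cannot be set against the shares of all genes called. In bulk samples, a lower level can mean fewer cells in a phase or less RNA per cell, and these cannot be told apart. A further 10 members had a probe that too few arrays detected to be tested. They include the cyclins Ccna2 and Ccnb2, the checkpoint kinases Bub1 and Ttk, the kinesins Cenpe and Kif20a, Nek2, Hmmr, Ect2 and Smc2. Their probes were detected on 0 to 2 of the 32 arrays, so no genotype difference could be read for them.

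Averaged over the 5 times, KO and WT cells differed in 19 of the 29 tested members (65.5%), while 67.4% of all tested genes were called in this comparison, so members were called about as often as other genes. Of these, 6 were higher in KO cells, with 31.8% of all genes called higher, and 13 were lower, with 35.6% of all genes called lower. The median difference over the members was −0.07 on the log2 scale, against −0.02 over all genes. Members of every role but that of Cdk1 and its activators lay on both sides of 0, and the largest differences in each direction were of similar size. Where arrays are said below not to overlap, the share of all genes without overlap was not counted.

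**Figure D1:**
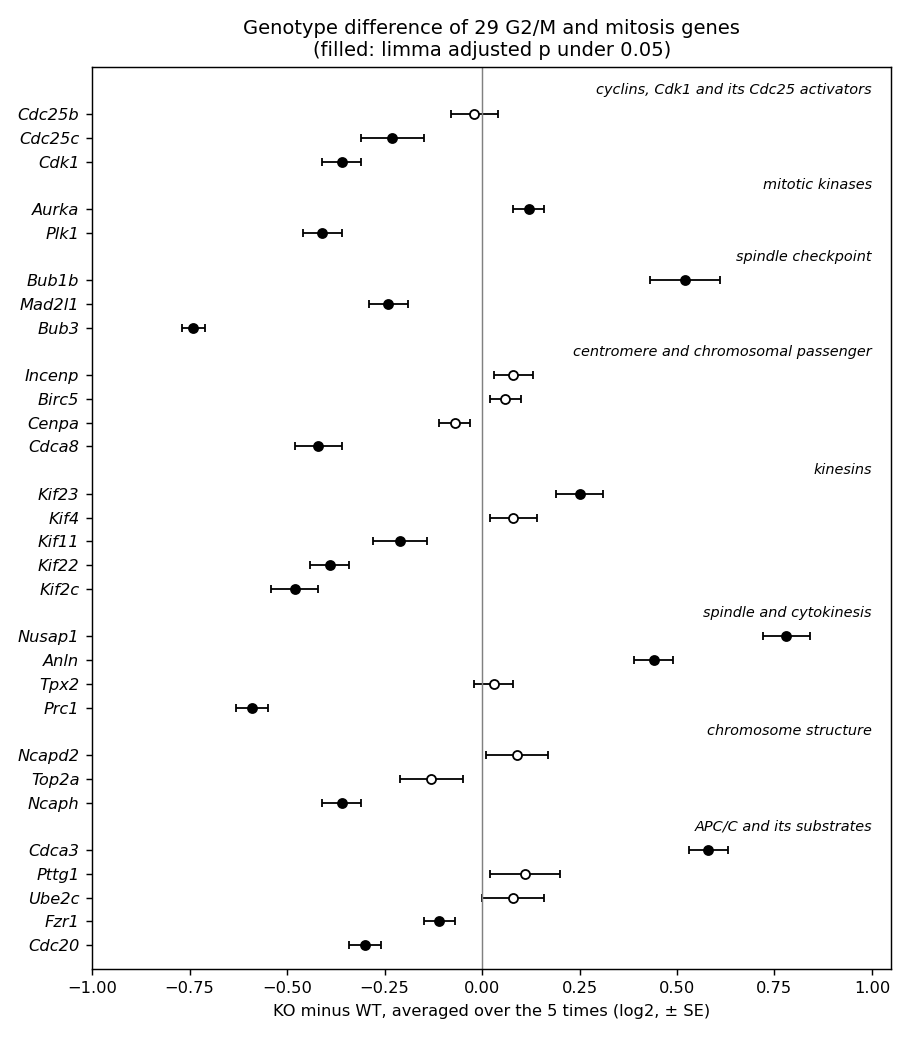
Difference between KO and WT cells for the 29 tested members, averaged over the 5 times, on the log2 scale (points, with the standard error of the moderated fit), grouped by role; filled points passed an adjusted p under 0.05. The points run from −0.74 for Bub3 to 0.78 for Nusap1.

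Of the kinases that start mitosis and their activators, Cdk1 was lower in KO cells. Cdk1 had a median of 9.88 on the 16 KO arrays and 10.21 on the 16 WT arrays; the highest KO array, at 10.22, lay within the WT range, which reached 10.62. The averaged difference was −0.36 ± 0.05 (log2, SE; adjusted p = 9.96e-07). Plk1, the Polo-like kinase that activates Cdk1 and builds the spindle, ran from 8.11 over 8.62 to 8.94 on KO arrays and from 8.52 over 9.04 to 9.23 on WT arrays. It was 1.33-fold lower in KO cells (log2 −0.41 ± 0.05, adjusted p = 1.57e-08), and the difference was called at 15, 60 and 120 min but not at 0 or 240 min. Aurka, the Aurora kinase of centrosomes and spindle poles, went the other way: its median was 8.96 on KO arrays and 8.77 on WT arrays, a difference of 0.12 ± 0.04 (adjusted p = 0.00773). That call was lost when arrays were scaled on their medians over all probes (0.06, adjusted p = 0.34) or over the kept probes (0.03, adjusted p = 0.558). Cdc25c, a phosphatase that activates Cdk1, was lower in KO cells by a difference of −0.23 ± 0.08 (adjusted p = 0.00949). On the probe used, this came mostly from 0 min (−0.60) and 15 min (−0.51), and the difference at 60 min was 0.12. The other Cdc25c probe that passed the filter gave −0.30 when averaged and −0.27 at 0 min, so the time pattern rests on 1 probe. Cdc25b was detected on 7 arrays in all and differed by −0.02 ± 0.06.

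The spindle checkpoint genes lay on both sides. Bub3, which carries Bub1 and BubR1 to unattached kinetochores, had the largest fall of the list: KO arrays lay between 6.62 and 7.15 and WT arrays between 7.50 and 7.85, so no KO array reached the lowest WT array. It was 1.67-fold lower in KO cells (log2 −0.74 ± 0.03, adjusted p = 3.74e-18) and was called at all 5 times, by −0.70, −0.67, −1.11, −0.55 and −0.68. Bub1b, which encodes the checkpoint protein BubR1, was higher in KO cells, with a median of 5.81 on KO arrays and 5.33 on WT arrays (0.52 ± 0.09, adjusted p = 1.28e-05). The first 3 times gave 0.28, 0.38 and 0.44, none of them called, and 120 and 240 min gave 0.57 and 0.94, both called. Mad2l1, the checkpoint protein that binds Cdc20, was 1.18-fold lower in KO cells when averaged, although both genotypes averaged 9.53 at 0 min.

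Cytokinesis and spindle genes included the largest rise. Nusap1, a protein that stabilises spindle microtubules near chromatin, lay between 7.25 and 7.98 on KO arrays and between 6.27 and 7.12 on WT arrays, with no overlap. It was 1.71-fold higher in KO cells (0.78 ± 0.06, adjusted p = 1.27e-12), by 0.96, 0.62, 0.79, 0.58 and 0.94 over the times, all called. Anln, the actin-binding scaffold anillin of the cleavage furrow, was 1.36-fold higher (0.44 ± 0.05, adjusted p = 9.32e-09), with medians of 10.42 on KO arrays and 10.07 on WT arrays. The other Anln probe that passed the filter, which was much dimmer, showed a difference of −0.01, so the rise rests on 1 probe. Prc1 ran opposite to both: from 9.61 over 9.97 to 10.26 on KO arrays and from 10.18 over 10.56 to 10.75 on WT arrays. It was 1.51-fold lower in KO cells (−0.59 ± 0.04, adjusted p = 1.26e-12), and the difference was called at all 5 times. Tpx2, the activator of Aurka on the spindle, differed by 0.03 ± 0.05.

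**Figure D2:**
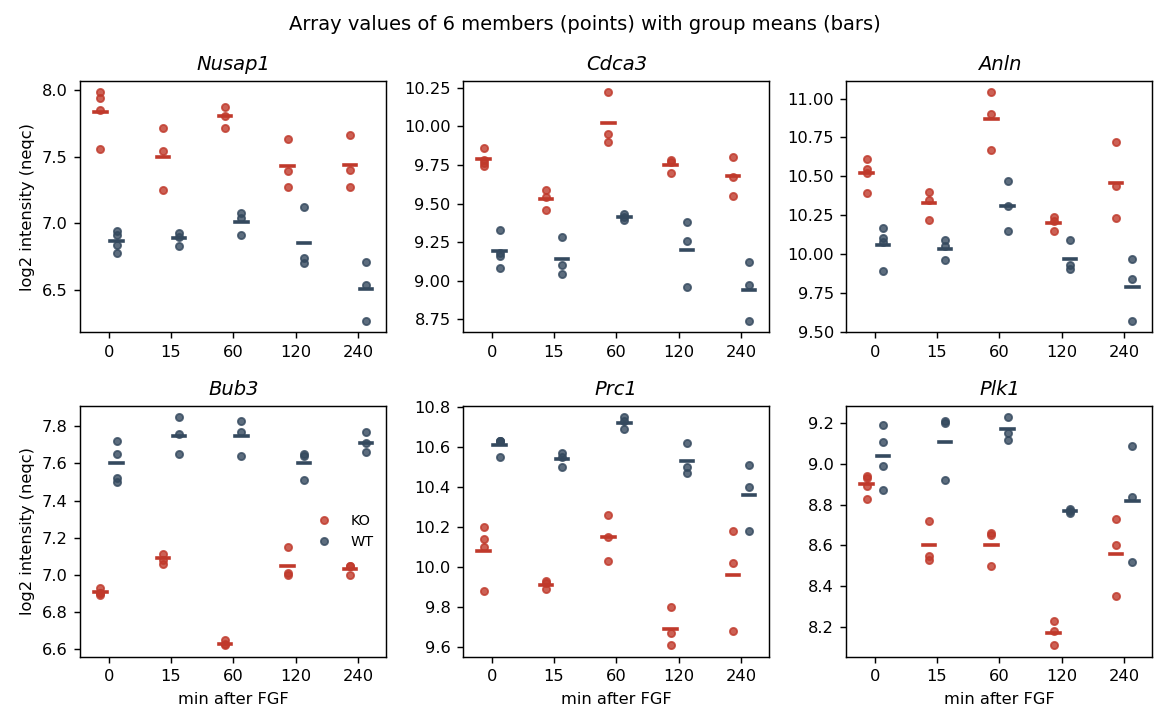
Log2 intensity on every array for 6 members at 0 to 240 min after FGF, KO left of WT at each time, with bars at the group means. Nusap1 and Cdca3 were higher and Bub3 lower in KO cells with no overlap over all arrays, and Plk1 fell to a mean of 8.17 in KO cells at 120 min. The share of all genes without overlap was not counted.

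Among the kinesins, 3 were lower in KO cells and 1 was higher. Kif2c, which takes apart microtubules at kinetochores, ran from 6.45 over 6.81 to 7.34 on KO arrays and from 6.77 over 7.35 to 7.68 on WT arrays, a difference of −0.48 ± 0.06 (adjusted p = 1.15e-07). Kif22, the chromosome-arm motor, had medians of 7.71 on KO arrays and 8.07 on WT arrays (−0.39 ± 0.05, adjusted p = 1.95e-07). Kif11, the motor that separates the spindle poles, was lower by a difference of −0.21 ± 0.07 (adjusted p = 0.0142), a call that median scaling over all probes ended (adjusted p = 0.0798). Kif23, part of the centralspindlin complex of the dividing cell, was the kinesin that rose, with medians of 7.50 on KO arrays and 7.23 on WT arrays (0.25 ± 0.06, adjusted p = 9.82e-04). Kif4 differed by 0.08 ± 0.06, not called, while another of its probes gave 0.28 and the mean of its probes 0.14, which was called (adjusted p = 0.00639).

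Of the chromosomal passenger and centromere genes, Cdca8, which encodes borealin, was lower in KO cells. Its median was 6.33 on KO arrays and 6.66 on WT arrays (−0.42 ± 0.06, adjusted p = 2.34e-07). Its partners Birc5 (survivin), at 0.06, and Incenp, at 0.08, were not called on average, and neither was Cenpa, at −0.07. Of the chromosome structure genes, the condensin subunit Ncaph was lower in KO cells (−0.36 ± 0.05, adjusted p = 1.12e-06), with medians of 7.65 on KO arrays and 7.99 on WT arrays. The condensin subunit Ncapd2, at 0.09, and Top2a, the topoisomerase that untangles sister chromatids, at −0.13, were not called, though another Ncapd2 probe gave 0.34 and the mean of its probes 0.16, which was called (adjusted p = 0.00581).

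Cdc20 and Fzr1, the activating subunits of the APC/C, were both lower in KO cells. Cdc20 had medians of 9.09 on KO arrays and 9.46 on WT arrays (−0.30 ± 0.04, adjusted p = 3.57e-08), and its 4 probes on the array all gave differences below 0, from −0.32 to −0.19. Fzr1 differed by only −0.11 ± 0.04 (adjusted p = 0.0157) and was not called when all its probes were averaged (−0.05, adjusted p = 0.234). Cdca3, in contrast, lay between 9.46 and 10.22 on KO arrays and between 8.74 and 9.43 on WT arrays, which did not overlap, and was 1.49-fold higher (0.58 ± 0.05, adjusted p = 5.17e-12) at all 5 times. Its other probe was higher in KO cells as well, by 0.33. Ube2c and Pttg1, the ubiquitin-conjugating enzyme of the APC/C and securin, were detected on 20 arrays each and differed by 0.08 and 0.11, neither called.

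At single times between 31.0% and 48.3% of the members were called, against 39.9% to 45.8% of all genes. Members called lower made up 34.5% at 15 min and 37.9% at 120 min, and those called higher 13.8% and 10.3%. At 0 min 5 members were higher and 7 lower, with 45.8% of all genes called (22.2% higher, 23.7% lower). At 15 min 4 were higher and 10 lower (39.9% of all genes; 19.1% higher, 20.9% lower). At 60 min 3 were higher and 6 lower (42.0%; 20.9% higher, 21.0% lower). At 120 min 3 were higher and 11 lower (43.8%; 21.2% higher, 22.6% lower), and at 240 min 6 were higher and 6 lower (43.9%; 21.9% higher, 22.0% lower). Nusap1 and Cdca3 were higher, and Bub3 and Prc1 lower, at each of the 5 times. No member was called in opposite directions at different times, and 8 were called at none. These counts over the times were not made for all genes, so they are not read as particular to the members. The split of all called genes into higher and lower depended on scaling: at 0 min 48.4% of them were higher in KO cells, against 66.9% with median scaling over all probes and 38% over the kept probes, which moved the members' median to 0.10 and −0.08, against −0.03. At 120 min 48.4% were higher, against 28.8% with median scaling over all probes.

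After FGF, mitotic genes fell in KO cells, in the largest number at 120 min. Every later time had FGF, so its effect and that of elapsed time cannot be told apart. At 120 min 13 of 29 members fell below their 0 min level and none rose, while 15.2% of all genes were called, 9.03% in the downward direction. The median change was −0.32 over the members and −0.02 over all genes, and 23 members lay below 0. Both tested mitotic kinases, 4 of 5 kinesins and all 4 spindle and cytokinesis genes fell. So did 2 of 5 APC/C genes and 1 of 3 chromosome structure genes. None of the spindle checkpoint, centromere and passenger, or Cdk1 and Cdc25 genes was called. Of the APC/C genes, Cdca3 was not called on the probe used (−0.04). Its other probe gave −0.34 (limma adjusted p over all kept probes = 0.0292).

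Plk1 stood at 8.11, 8.23 and 8.18 on the 3 KO arrays at 120 min, against 8.94, 8.93, 8.83 and 8.89 on the 4 KO arrays at 0 min. All arrays at 120 min lay below all those at 0 min, a 1.65-fold fall (log2 −0.72 ± 0.10, adjusted p = 1.31e-05). Aurka stood at 8.48, 8.60 and 8.31 at 120 min, against 9.11, 9.03, 8.90 and 9.16 at 0 min in KO cells, also without overlap (−0.59 ± 0.08, adjusted p = 1.24e-05). Ncaph read 7.17, 7.35 and 7.04 at 120 min and 7.80, 7.78, 7.60 and 7.71 at 0 min (−0.53 ± 0.11, adjusted p = 0.00173). Kif11 read 5.84, 5.47 and 5.49 at 120 min and 6.02, 6.47, 5.83 and 6.27 at 0 min. The lowest Kif11 array at 0 min reached just under the highest at 120 min, and the call (−0.54 ± 0.16, adjusted p = 0.0171) was lost without KO 0 min replicate B, KO 120 min replicate B or KO 120 min replicate C. The other falls were of Tpx2 (−0.48), Kif22 (−0.46), Kif2c (−0.41), Nusap1 (−0.40), Prc1 (−0.39), Kif4 (−0.38), Cdc20 (−0.36), Anln (−0.32) and Fzr1 (−0.32). Of these 13 calls, those of Plk1, Aurka, Ncaph, Tpx2 and Prc1 held under all 15 alternatives run. Those of Anln and Kif2c were lost under 10 and 8 of the 15, among them leaving out any of 6 of the 7 arrays and the replicate block, and those of Nusap1 and Kif4 under 6 each. With the mean of a gene's probes, 4 of the 13 calls were lost: Kif4 (−0.03, adjusted p = 0.888), Anln (−0.19, adjusted p = 0.238), Fzr1 (−0.19, adjusted p = 0.103) and Cdc20 (−0.24, adjusted p = 0.0636). The other probes of Kif4 gave 0.00 and 0.30. Without KO 120 min replicate C, the array with the lowest mean of the members, 6 members were called instead of 13, and without KO 0 min replicate B 8 were.

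**Figure D3:**
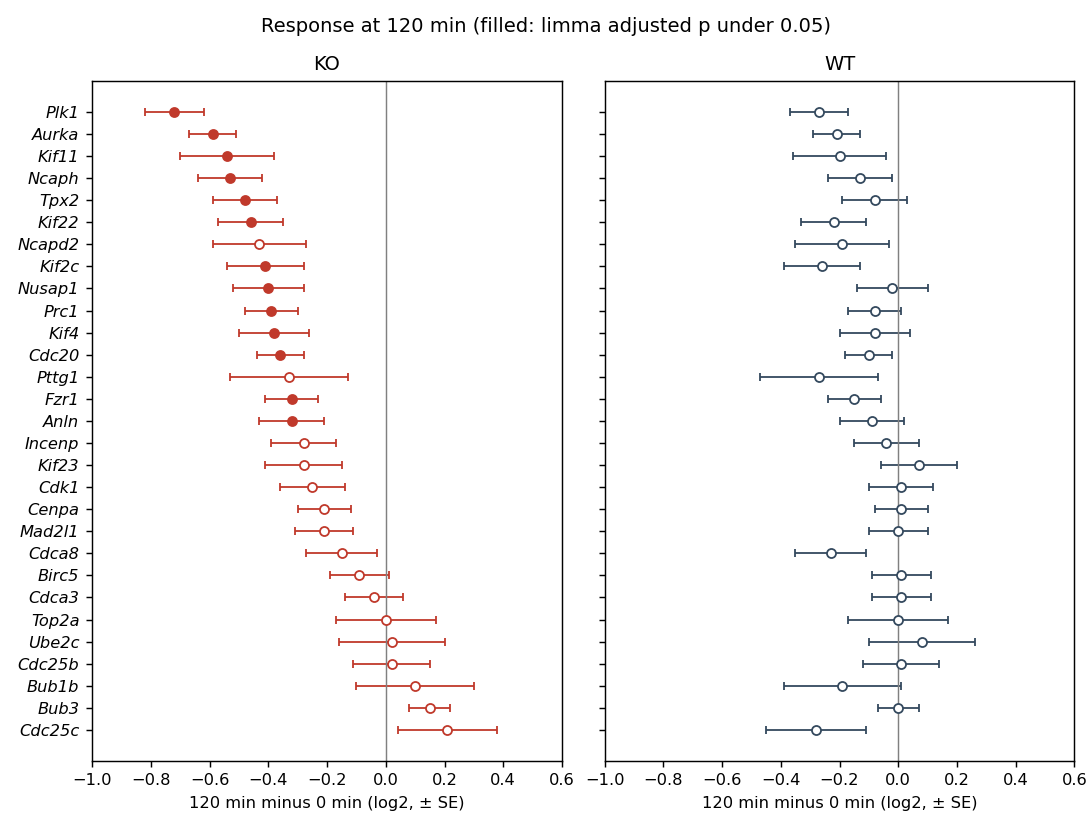
Change from 0 to 120 min of FGF in KO cells (left) and WT cells (right) for the 29 tested members, on the log2 scale with standard errors; filled points passed an adjusted p under 0.05. In KO cells 13 members fell, with Plk1 lowest at −0.72, and in WT cells none passed, with Plk1 at −0.27.

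In WT cells no member was called at 120 min by limma, with 4.02% of all genes called. At the looser unadjusted p under 0.05 there were 2 members. Plk1 stood at 8.76, 8.78 and 8.77 on the WT arrays at 120 min, against 9.19, 8.99, 8.87 and 9.11 at 0 min, so all 3 lay below all 4, and the change was −0.27. The WT median over the members was −0.08. The difference between the responses of KO and WT cells was not called for any member at 120 min (1.86% of all genes called). At the looser unadjusted p under 0.05 there were 8 members, and the share of all genes at that threshold is not given here. For Plk1 this difference was −0.45 ± 0.15 (adjusted p = 0.113), for Aurka −0.38 ± 0.12 (adjusted p = 0.104) and for Ncaph −0.40 ± 0.16 (adjusted p = 0.214). These counts depended on scaling: with arrays scaled on their medians over all probes, the median of all genes in KO cells moved to −0.21 at 120 min, the members' median to −0.57 and the number of members called to 22. With that scaling the difference between the responses was called for 17 members, each with the more negative change in KO cells. Its median was −0.58 over the members and −0.27 over all genes. Of all genes called for this difference with that scaling, only 3.34% were higher, so the shared direction was not particular to the members. The share of all genes called with that scaling is not given here. With medians over the kept probes it was called for 1 member. The members' median change in KO cells lay below that of all genes under each scaling tried. Among all called genes in KO cells at 120 min, 40.4% were higher, against 5.61% with that scaling and 61.9% with medians over the kept probes. Of the 12 members that fell in KO cells at 120 min and had a promoter entry, 9 held a CHR, and of the 14 with an entry that were tested but not called, 11 did.

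**Figure D4:**
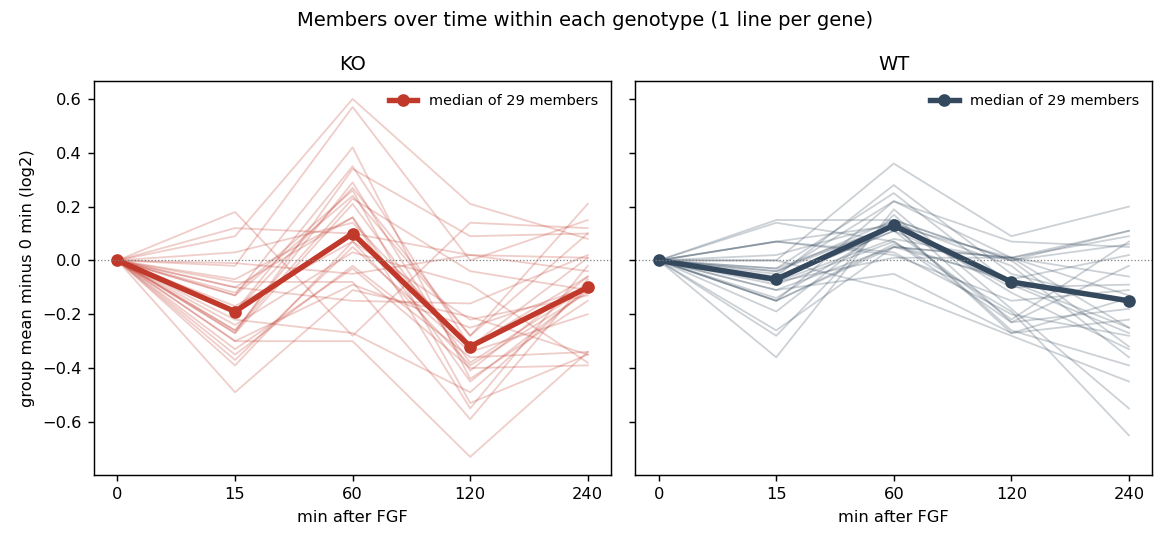
Group means of the 29 tested members relative to the 0 min mean of their own genotype (thin lines, 1 per gene; thick line, median), KO left and WT right, against min after FGF. The median over 15, 60, 120 and 240 min ran −0.19, 0.09, −0.32 and −0.10 in KO cells and −0.07, 0.13, −0.08 and −0.15 in WT cells.

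The fall at 120 min was the low point of an up and down course in KO cells. All KO responses share the same 4 arrays at 0 min, so their values are not independent. At 15 min 3 members fell and none rose (0.816% of all genes called, 0.422% lower). Mad2l1 read 9.11, 8.87 and 9.14 at 15 min, against 9.61, 9.57, 9.30 and 9.63 at 0 min (−0.49 ± 0.10, adjusted p = 0.0113). Cenpa fell by 0.39 (adjusted p = 0.0276) and Cdc20 by 0.35 (adjusted p = 0.0324), and both calls were lost when any of 6 of the 7 arrays was left out. Without KO 15 min replicate B no member was called. In WT cells the values were −0.20, −0.14 and −0.03, and no member was called at 15 min (2.29% of all genes called). At the looser unadjusted p under 0.05 there were 3 members.

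At 60 min most members stood close to or above their starting level in both genotypes, and 5.66% of all genes were called in KO cells (3.19% higher, 2.47% lower) and 5.25% in WT cells. In KO cells 1 member, Cdc25c, was higher and 1, Bub3, was lower. Cdc25c, in KO cells, stood at 5.90, 6.52 and 6.41 at 60 min, against 5.87, 5.66, 5.82 and 5.35 at 0 min (0.60 ± 0.17, adjusted p = 0.0308). Its call was lost without KO 60 min replicate B or C or KO 0 min replicate B or D; Bub3 was lost without KO 60 min replicate C, and without KO 60 min replicate A 5 members were called. In WT cells none was called, 4 had an unadjusted p under 0.05, and 27 of 29 lay above 0 with a median of 0.13. From 15 to 60 min in KO cells Top2a rose by 0.59, Kif2c by 0.56, Anln and Ncapd2 by 0.55, Cdca3 by 0.49, Kif4 by 0.48 and Cenpa by 0.47. Bub3 fell by 0.45. All of these were called (8.17% of all genes called, 4.54% higher). From 60 to 120 min in KO cells Ncapd2 fell by 0.86, Ncaph by 0.79, Kif11 by 0.71, Kif2c by 0.70 and Anln by 0.67. These were called too (17.3% of all genes called, 9.91% lower). Changes between successive times were not rerun under the alternative settings or with arrays left out. In WT cells Plk1 fell by 0.40 (adjusted p = 0.0235) and Aurka by 0.32 (adjusted p = 0.0237) over the same interval. From 120 to 240 min Aurka rose again, by 0.52 in KO cells and by 0.28 in WT cells.

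At 240 min 6 members were below their 0 min level in KO cells (21.3% of all genes called, 11.1% lower) and 4 in WT cells (16.0% of all genes called, 8.33% lower). In KO cells these were Birc5 (−0.39), Nusap1 (−0.39), Mad2l1 (−0.35), Ncaph (−0.35), Cdc20 (−0.34) and Plk1 (−0.33), and without KO 240 min replicate B 3 were called. In WT cells they were Ncapd2, Kif2c (−0.39), Nusap1 (−0.36) and Ncaph (−0.34), of which Kif2c was lost under 11 of 15 alternatives and Nusap1 and Ncaph under 9 each. In KO cells Nusap1 was lost under 5 and Ncaph under 4. Ncapd2 had the largest WT change of the list, with 7.23, 6.99 and 6.84 at 240 min, against 7.58, 7.65, 7.67 and 7.79 at 0 min (−0.65 ± 0.16, adjusted p = 0.00532), and 7.17, 7.28 and 8.04 at 240 min in KO cells. With the mean of its probes the WT change was −0.27 and not called (adjusted p = 0.0847). WT 240 min replicate C held the lowest mean of the members of any WT array, with 4 of 29 above their own mean; without it only 1 member was called in WT cells, and without WT 0 min replicate A or D also 1. No difference of responses was called at 15 or 240 min (0.0550% and 7.86% of all genes called). At the looser unadjusted p under 0.05 there were 3 and 6 members.

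Bub3 was the member whose response differed between the genotypes. In KO cells it read 6.62, 6.65 and 6.63 at 60 min, against 6.90, 6.89, 6.90 and 6.93 at 0 min, and in WT cells 7.83, 7.64 and 7.77 at 60 min, against 7.65, 7.52, 7.72 and 7.50 at 0 min. KO arrays at 60 min thus lay below every other KO array, while WT arrays at 60 min overlapped those at 0 min. The change was −0.27 in KO cells (adjusted p = 0.015) and 0.14 in WT cells, a difference of responses of −0.42 ± 0.10 (adjusted p = 0.0285; 0.706% of all genes called at 60 min). In the F-test over the 4 times Bub3 had an adjusted p of 0.00358 and was the only member called, with 9.22% of all genes called. The difference at 60 min missed the threshold when any of 9 single arrays was left out, with the replicate block and with the other background correction, with adjusted p up to 0.114, and kept its sign throughout. Bub3 went up from 60 to 120 min in KO cells, by 0.42, over the interval in which Ncapd2, Ncaph and Kif11 went down.

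The members moved together to some degree from array to array, with group means removed. Over the 32 arrays the median correlation between 2 members was 0.29 and that of a member with the mean of the other members was 0.52. These arrays share their normalization. The median correlation of the other genes tested with the mean of the members was 0.01. Correlations of those genes with one another are not given here. Kif22 (0.79), Aurka (0.78) and Ncaph (0.77) followed the mean of the other members most closely. Bub3 (0.00), Cdc25c (−0.01) and Pttg1 (0.06) followed it least.

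Related gene lists, chosen with the same knowledge, are given for comparison. Of 46 other tested mitotic genes, 10 were higher and 24 lower in KO cells averaged over the times (median −0.18; 31.8% of all genes called higher and 35.6% lower), among them Lmnb1, the nuclear lamina protein lamin B1 (−1.04 ± 0.07), Hmgb2 (−0.63), Shcbp1 (−0.57) and, in the other direction, Pimreg (0.70). In KO cells at 120 min 18 of these 46 fell and none rose (median −0.33; 9.03% of all genes lower), led by Cdca2, which brings a phosphatase to chromosomes (−0.82), the spindle pole protein Aspm (−0.78), Bora, the cofactor that helps Aurka activate Plk1 (−0.68), and Ckap2l (−0.64). Of 36 tested genes of G1/S and DNA replication, 35 were lower in KO cells and 1 higher when averaged (median −0.60), against the same shares of all genes, with Ung at −1.89, Cdc6 at −1.13, Mcm5 at −1.10 and Mcm6 at −1.05. Of 36, 10 rose in WT cells and 14 fell in KO cells by 240 min, and the difference of responses was called lower for 13. Over all genes 7.66% rose in WT cells, 11.1% fell in KO cells and 3.54% were called lower for this difference. The corresponding counts for the mitotic members were 6 higher and 13 lower on average, and 0 for the difference of responses at 240 min.

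**Figure D5:**
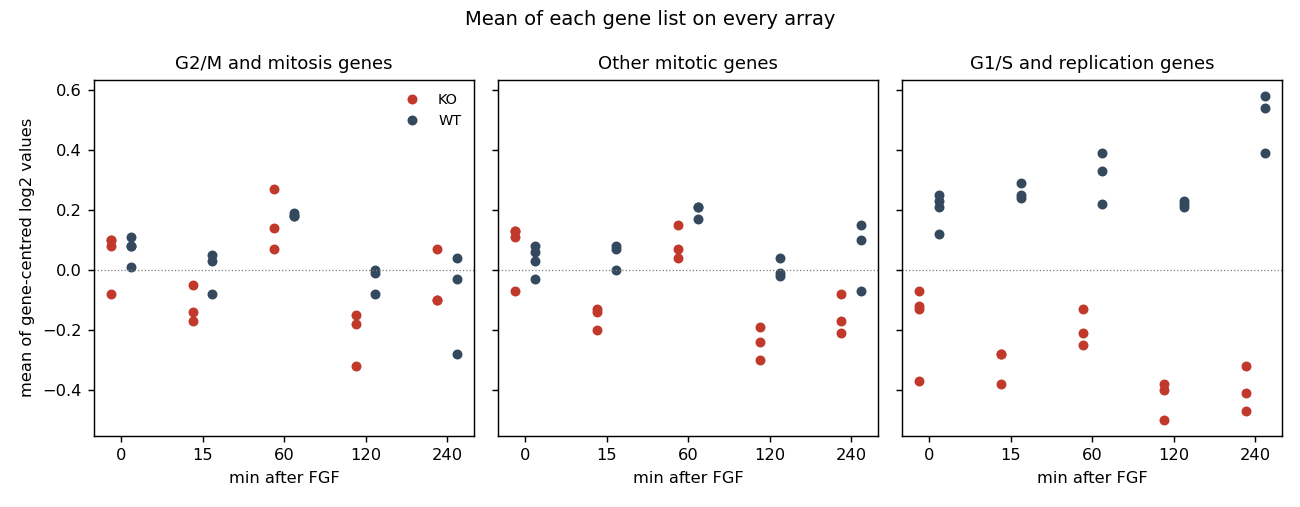
Mean of gene-centred log2 values of the G2/M and mitosis genes, of other mitotic genes and of G1/S and replication genes on every array, KO left of WT, at 0 to 240 min after FGF. The G1/S means of KO and WT arrays lie apart at every time. Those of the G2/M and mitosis genes intermingle at 0 min and lie apart only at 120 min, with KO below WT. The means of the other mitotic genes intermingle at 0 min and lie apart at every later time, with KO below WT. At 240 min they lie apart narrowly, with −0.08 on the highest KO array and −0.07 on the lowest WT array.

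The APC/C subunits, the regulators of the DREAM and E2F class and a list of inhibitors and checkpoint genes held called genes in both directions. In all 61.5% of the APC/C list, 80.0% of the regulators and 66.7% of the inhibitors and checkpoint genes were called on average. Of all genes, 67.4% were called (31.8% higher, 35.6% lower). Of 13 tested APC/C subunits 2 were higher and 6 lower in KO cells, with Anapc15 at −0.80 ± 0.04 and Cdc23 at −0.50 ± 0.05. Of 15 DREAM and E2F genes 5 were higher and 7 lower, with the repressor E2f6 at 0.94 ± 0.03 and E2f2 at −0.68 ± 0.08. Of 12 inhibitors and checkpoint genes 4 were higher and 4 lower, with the Cdk inhibitors Cdkn1c at 1.23 ± 0.06 and Cdkn1b at −0.56 ± 0.07. In KO cells at 120 min the growth arrest genes Gadd45g (−1.16 ± 0.08) and Gadd45b (−1.01 ± 0.10) fell along with Chek2 (−0.59), and Mdm2 rose (0.35).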

How the data were processed

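Biotin-labelled total RNA was profiled on Illumina bead arrays, per the labels. The deposited intensity values are linear, unscaled between arrays and below 0 for some probes, so background had been subtracted. GenomeStudio 1.9.0 is named in the submitters' processing notes. The deposited fraction per probe rises with brightness, and 1 minus it was taken as the detection p-value. The authors' series matrix intensity, whose array medians lie between 10.1 and 10.2, served as an alternative, and another 192 per-sample columns went unused.

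Intensities were corrected with limma's neqc (R 4.3.3, limma 3.58.1), which estimates the negative controls through detection p, adds an offset of 16, takes log2 and quantile-normalizes. The filter asked for a detection p under 0.05 on 3 or more arrays and passed 14716 probes. The brightest probe stood for a gene, giving 10903 tested genes. The platform annotation gave 1 symbol for 23978 of 25697 probes and none for 1719. lmFit and eBayes were run on 1 model of 10 group means over all 32 arrays, with Benjamini-Hochberg adjustment over all tested genes. Each standard error is limma's moderated one and each adjusted p is limma's. Group means and array values are log2 intensities, and values of different probes are not compared.

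Data were simulated for 10903 genes with independent noise and without the normalization step. Changes of 0.5, 1 and 2 log2 units were given to 67, 67 and 66 genes. In the averaged comparison of KO and WT, 100%, 100% and 100% of these were recovered. At 120 min in KO cells the shares were 62.7%, 98.5% and 100%. Far more genes were called in the real data, and errors from scaling were not simulated, so these rates may not hold there. The number of arrays limits the precision.

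The members and the lists were chosen with earlier results of these data known. Any member may be named. Array values are given for the called members with the 6 highest and the 6 lowest averaged differences and for up to 4 members with the largest called change in each direction in a response, and of each other list up to 4 called genes are named. Of other arrays, values are given for members whose genotype or time differences are discussed. Alternatives were other background corrections and scalings, other filters on dim probes, the mean of a gene's probes, the authors' series matrix, a replicate block and leaving out each array. Promoters were read from RefSeq's table, and coordinates are those of GRCm38.p6.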

Additional observations from a re-analysis of the deposited data

Results flagged for a closer look

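With chance flagging about 1 group in 20, 4 members had an array that stood apart from the other 3 in WT cells at 0 min. Cdc25b read 4.56 in replicate D, against 4.89 to 4.95. Birc5 read 10.07 in replicate C, against 9.89 to 9.92. Prc1 read 10.55 in replicate B, against 10.63 on each of the others, and Ube2c read 5.15 in replicate D, against 4.64 to 4.70. Cdc25b and Ube2c were not detected on all arrays. The response of Bub3 at 60 min differed between KO and WT cells by −0.42 on the log2 scale.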

How the results depend on the processing

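The called averaged differences, the called responses and the Bub3 difference at 60 min kept their direction under every setting tried; genotype calls at single times were recomputed as counts only. The averaged comparison of KO and WT called 19 to 20 members whichever array was left out. Called members changed under these settings. With median scaling over all probes, the number of members called was 22 at 120 min in KO cells, 0 at 15 min in KO cells, 2 at 240 min in WT cells, and 17 and 2 for the difference of responses at 120 and 60 min. With that scaling only 5.61% of all genes called at 120 min in KO cells were higher, and 3.34% of those called for the difference at 120 min. With median scaling over the kept probes it was 1 at 15 min in KO cells, 2 at 240 min in WT cells and 1 for the difference at 120 min. The stricter filter gave 4 at 60 min in KO cells, and no filter gave 1 at 240 min in WT cells. The other background correction (saddle-point normexp, offset 50) gave 0 for the difference at 60 min and 1 at 240 min.

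Leaving out single arrays gave 6 to 14 called at 120 min in KO cells, 0 to 3 at 15 min, 0 to 5 at 60 min, 3 to 6 at 240 min, and 1 to 6 at 240 min in WT cells; the differences of responses at 60 and 240 min gave 0 to 1. The count at 240 min in KO cells fell to 3 without KO 240 min replicate B. At 60 min in KO cells it was 5 without KO 60 min replicate A, 0 without replicate C and 1 without replicate B or without KO 0 min replicate B or D. At 15 min it was 0 without KO 15 min replicate B and 1 without KO 15 min replicate A or C or KO 0 min replicate A, B or D. The difference at 240 min was 1 without KO 0 min replicate C or WT 0 min replicate C. The cause was not tested.

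No pairing by replicate letter was seen with group means removed. In 13 pairs of groups, same-lettered arrays correlated at −0.19 to 0.16 and in 0 pairs did every letter exceed 0.1. A weaker shared effect would not reach this threshold. The check therefore does not decide whether same-lettered samples were handled together. With the letter as a replicate block the counts were 10 at 120 min, 1 at 15 min, 1 at 60 min and 5 at 240 min in KO cells, 2 at 240 min in WT cells, 0 for the difference at 60 min and 19 for the averaged comparison. A slide block was not run, since the headers name no slide. Of single members' values, 416 kept their side of the threshold under another setting, 43 lost a call and 4 gained one. With 1 array left out, 1057 kept their side, 79 lost a call and 2 gained one. Dim probes limit what can be said of the 10 members that were not tested.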
